A study of Arabidopsis thaliana with 30 samples.

Results

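The response of wild-type Arabidopsis thaliana seedlings to submergence was measured in 6 poly-A RNA-seq libraries, 3 of mock-treated and 3 of submerged seedlings of the Col strain. They were taken by their labels as the Col columns of the count table that also holds the tcp21 and tcpq mutants, called the tcp set here, and make up 6 of the 30 libraries of the study. The table lists 32833 genes, of which 20385 had enough counts to be tested. The study asked why the bak1-3 bkk1-1, tcp21 and tcpq mutants are sensitive to submergence, and Col is the wild type against which they are read.

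All 6 libraries are labelled as whole seedlings aged 6 days, with Col as strain and either mock or submergence as treatment, and no transgene or mutation is named for 5 of them. The extraction text, which is shared by the whole study, also mentions germinating seeds. The sources used here give neither the length of the submergence nor the light during it nor the hour of harvest. The sixth, the first mock library, is titled Col and has Col as its strain, but its genotype field names the bak1-3 bkk1-1 insertion lines. It was kept as Col by its title and strain, and results that change without it are named beside them. A second table, the bak set, has its own 3 mock and 3 submerged Col libraries, again whole seedlings aged 6 days, which serve here only to show where the response of the tcp set differs.

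Water slows the diffusion of gases, so submerged plants run short of oxygen and carbon dioxide while ethylene builds up in their tissues. In Arabidopsis, group VII ERF transcription factors, which are degraded when oxygen is present, switch on a core set of genes for sucrose cleavage, glycolysis and ethanol fermentation. Jasmonate, abscisic acid and gibberellin signalling, sugar-starvation programs and growth genes are also known to change in plants under water.

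The libraries held 17466180 to 20675215 gene counts in the mock group and 21121941 to 26085652 in the submergence group, of which 0.0411% to 0.0541% lay in chloroplast or mitochondrial genes. The first principal component of log2 CPM (read counts scaled to library size and, with TMM, to library composition) carried 73.5% of the variance and separated the treatments, with mock libraries between -56.91 and -55.16 and submergence libraries between 50.9 and 60.61. The second component carried 8.97% and set the first mock library, at 38.04, apart from the other mock libraries, at -26.28 and -12.46. Pearson's r between libraries of a group lay between 0.983 and 0.988 in the mock group and between 0.986 and 0.99 in the submergence group. Nothing in the labels says that replicates came from separate cultures, so the spread between libraries may be technical. The p-values cover only that spread, estimated in 1 fit of all 18 libraries of the tcp set, with the tcp21 and tcpq mutants. In whole-seedling RNA, fewer cells of a type and less RNA per cell cannot be told apart.

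Among the 20385 genes tested, 5527 rose (27.1%) and 4665 fell (22.9%), so that 50% were called by edgeR's quasi-likelihood test, with a threshold of 0.05 on p-values adjusted by Benjamini-Hochberg. Most changes were moderate. The median absolute log2 fold change of the called genes was 0.64, and 1855 genes rose (9.1%) and 902 fell (4.42%) by at least 2-fold. At least 16-fold changes were seen in 78 rising and 8 falling genes. The 3 libraries of one treatment lay wholly above or below those of the other for 11621 genes (57%), and this held for 9655 of the called genes, or 94.7%. Without the first mock library, 4962 genes rose and 4205 fell.

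These counts depend on how libraries are scaled. With library totals alone in place of TMM, 3759 genes rose and 6993 fell, so that rises made up 35% of the calls and not 54.2%, and the median log2 fold change of all genes tested moved from 0.04 to -0.14. Fold changes below are relative to the TMM scale, and where library totals alone changed a list's count by over 1.5 times or its split of rises and falls by over 10 percentage points, both are given. Over all genes tested, 27.1% rose, 22.9% fell and the median log2 fold change was 0.04, and the counts of each list below are to be read against these shares.

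Of the genes after which the mutants of the study are named, BKK1 responded most. BKK1 encodes a SERK co-receptor kinase of brassinosteroid and immune receptors. Its level was 49.2, 35.6 and 44.2 CPM in the mock libraries and 105, 100.5 and 100.3 CPM in the submergence libraries, an increase of 1.24 ± 0.10 (log2 fold change ± SE, n = 3 against 3, edgeR adjusted p = 6.4e-11). BAK1, its paralog, stood at 78.7, 75.3 and 82.2 CPM in mock and at 90.3, 95.3 and 92.7 CPM under water. The groups did not overlap, but the rise of 0.24 ± 0.07 (edgeR adjusted p = 0.0064) was not called on library totals alone (0.06, edgeR adjusted p = 0.531), and BAK1 overlaps AT4G33420 on the opposite strand. TCP21, a class I TCP transcription factor, stood at 83.2, 101.7 and 93.8 CPM in mock and 73.5, 77.6 and 83.4 CPM in submergence. The groups overlapped in 1 library each, and the fall of 0.25 on the log2 scale (SE 0.10, edgeR adjusted p = 0.0349) was lost without mock 2, mock 3, submergence 1 or submergence 2 (adjusted p 0.0724 to 0.17).

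**Figure D1:**
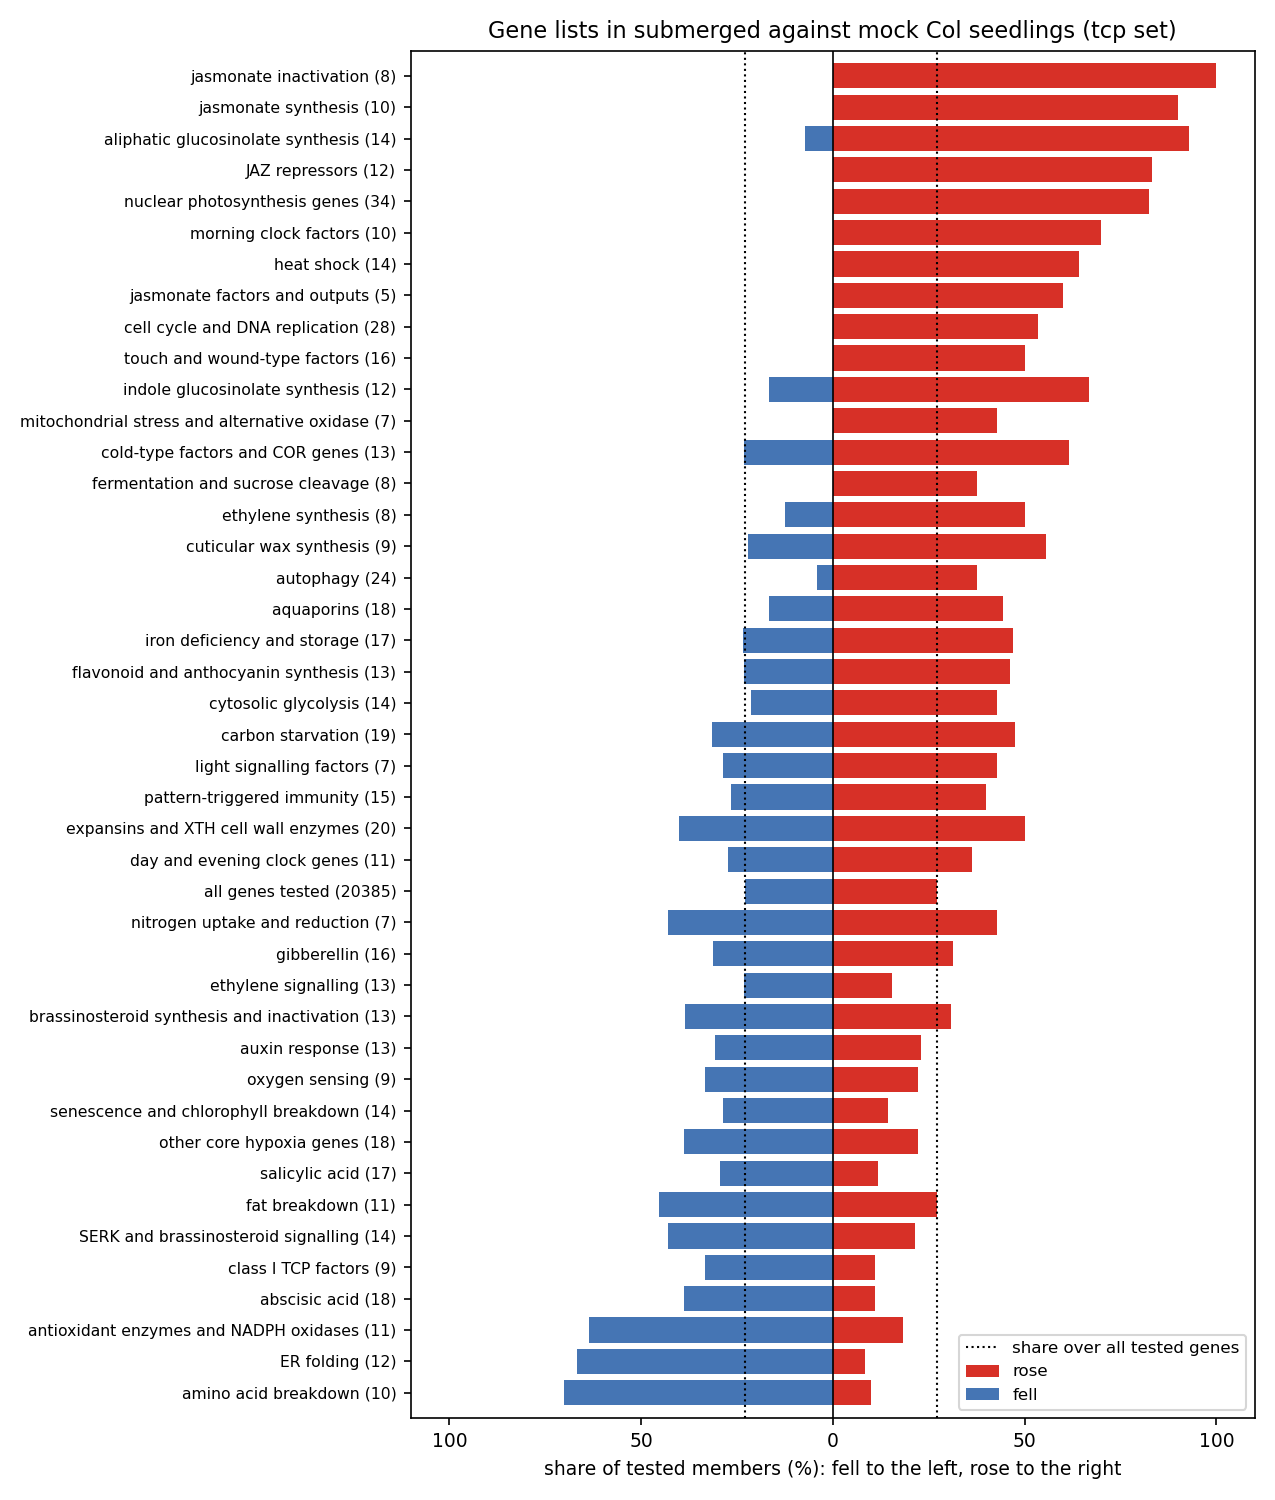
Share of the tested members of each gene list that rose (right, red) or fell (left, blue) in submerged against mock Col seedlings, in percent, with the number of tested members in brackets and dotted lines at the shares over all genes tested, 27.1% and 22.9%. Jasmonate inactivation, with 8 of 8 members up, stands at the top, and amino acid breakdown, with 7 of 10 members down, at the bottom.

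Among genes with at least 5 CPM in the higher group and more than 10 counts in the lower, the 6 largest increases by fold change were in genes of jasmonate oxidation and the cell wall, among others. AT2G38240, a 2-oxoglutarate-dependent oxygenase listed here with jasmonate inactivation, stood at 0.801, 0.875 and 0.47 CPM in mock and at 81, 65.6 and 69.6 CPM in submergence, a rise of 6.64 ± 0.24. AT5G62360, of the invertase and pectin methylesterase inhibitor family, rose by 6.36 ± 0.40, from a mean of 1.55 ± 0.416 to 129 ± 13.1 CPM (SD, n = 3). CYP94C1, which oxidises jasmonoyl-isoleucine, went from 6.58, 4.76 and 5.28 CPM to 271, 256 and 292 CPM, a rise of 5.61 ± 0.30. In all 3 genes every submergence library lay far above every mock library. AT1G68500, without an annotated function, rose by 5.48 ± 0.36, AT5G01380, a homeodomain-like factor, by 5.35 ± 0.16, and the beta-glucosidase gene BGLU24 by 5.07 ± 0.47. BGLU24 had only 11 counts over the 3 mock libraries.

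Growth, metal and late embryogenesis genes made up the 6 largest decreases. AT4G38860, a SAUR-like auxin-responsive gene, stood at 40.2, 44.3 and 31.2 CPM in mock and at 1.61, 0.705 and 1.13 CPM in submergence, a log2 fold change of -5.03 ± 0.23. NAS3, a nicotianamine synthase, which makes a chelator for iron and copper, fell from 6.85, 7.61 and 7.16 CPM to 0.322, 0.403 and 0.294 CPM (-4.39 ± 0.36). No library of one treatment reached the range of the other in either gene. The LEA-type genes AT3G17520 and AT3G53040 changed by -3.73 ± 0.33 and -3.50 ± 0.33, the SAUR-like gene AT2G21210 by -3.42 ± 0.20 and the expansin gene EXPA8, whose product loosens cell walls, by -3.11 ± 0.32.

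Another 6 genes were close to 0 in mock, with at most 10 counts over the 3 libraries, and reached at least 5 CPM under water. They were left out of the order above, in which they would otherwise stand high, and only levels are given for these, with no fold change. COR15A, a chloroplast protein that protects membranes in the cold, went from a mean of 0.103 to 20.9 CPM, and FAMT, a farnesoic acid methyltransferase, from 0.0365 to 12.8 CPM. The iron transporter gene IRT1 had 0 counts in all 3 mock libraries and 775 counts, or 11.9 CPM, in submergence. The calmodulin-like gene CML39 went from 0.146 to 10.3 CPM, the tyrosine aminotransferase gene TAT3 from 0.0522 to 8.63 CPM, and CYP79F1, the first enzyme of aliphatic glucosinolate core synthesis, from 0.0148 to 7.12 CPM.

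By CPM gained, photosynthesis genes led. LHCB1.3, a light-harvesting protein of photosystem II, gained 3232 CPM, from 11516 ± 1374 to 14748 ± 189 CPM (SD, n = 3), and the Rubisco activase gene RCA gained 2774 CPM. RBCS2B, a Rubisco small subunit, went from 2347 to 4554 CPM, RBCS3B from 5394 to 7592 CPM, the carbonic anhydrase gene CA1 from 2576 to 4661 CPM and PSBO1, of the oxygen-evolving complex, from 4419 to 6126 CPM. The largest loss was that of the nitrate reductase gene NIA2, which went from 1741 ± 93.3 to 601 ± 80.2 CPM. The beta-galactosidase gene BGAL1 and the beta-xylosidase gene BXL1, both acting on cell wall sugars, lost 842 and 826 CPM. The tonoplast aquaporin TIP1;2 went from 2779 to 1989 CPM, GUN5, a subunit of magnesium chelatase in chlorophyll synthesis, from 2397 to 1738 CPM, and the catalase gene CAT2 from 2743 to 2250 CPM. LHCB1 and RBCS genes are close paralogs, so reads may be shared among them.

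The low-oxygen genes moved in both directions. Of 8 fermentation and sucrose cleavage genes, 3 rose and 0 fell, with a median log2 fold change of 0.45, and 1 of the 8 fell on library totals alone. PDC2, a pyruvate decarboxylase at the entry to ethanol fermentation, stood at 6.63, 6.02 and 6.84 CPM in mock and at 17.1, 18.4 and 16.3 CPM under water, a rise of 1.41 ± 0.13 (edgeR adjusted p = 1.9e-10). ADH1, the alcohol dehydrogenase that follows it, went from 1.56, 2.85 and 2.04 CPM to 5.03, 6.65 and 6.23 CPM (1.48 ± 0.28), and overlaps AT1G77122 on the opposite strand. Both genes were higher in all 3 submergence libraries than in any mock library, at levels that stayed under 20 CPM. SUS1, a sucrose synthase, rose by 0.58 ± 0.11. PDC1 and SUS4, which belong to the core hypoxia set, had fold changes of 0.44 ± 0.29 and 0.47 ± 0.29 that did not pass the test (edgeR adjusted p = 0.217 and 0.191).

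Oxygen sensing rests on the group VII ERF factors and on the plant cysteine oxidases (PCO), which mark these factors for degradation when oxygen is present. Among the 9 tested members, 2 rose and 3 fell. RAP2.2 went from 115, 122 and 124 CPM to 168, 182 and 183 CPM, a rise of 0.57 ± 0.07, and HRE1, which is itself induced by low oxygen, rose by 1.27 ± 0.16, from a mean of 5.56 to 13.4 CPM. RAP2.12 and RAP2.3, of the same group of factors, had fold changes of 0.15 ± 0.07 and 0.10 ± 0.08 and were not called, apart from RAP2.12 without mock 1 (0.18, edgeR adjusted p = 0.0465). PCO1 and PCO2, which are core hypoxia genes as well, fell by 0.52 and 0.68 on the log2 scale and PCO5 by 0.33, but 0 of these falls were called without mock 1 and 1 without any single submergence library. The fall of PCO1 was lost without any single library (edgeR adjusted p 0.0563 to 0.134), with the replicate block (0.0555) and with no filter on low counts (0.0762).

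Of the 18 other core hypoxia genes tested, 4 rose and 7 fell, with a median of -0.36. HRA1, a trihelix factor that restrains RAP2.12, stood at 2.54, 2.68 and 2.56 CPM in mock and at 0.724, 1.31 and 1.27 CPM in submergence (-1.25 ± 0.38), a fall that was not called without submergence 1 (edgeR adjusted p = 0.0529). MGL, a methionine gamma-lyase, changed by -0.78 ± 0.11, the ethylene receptor gene ETR2 by -0.78 ± 0.14 and AT1G33055, without an annotated function, by -0.98 ± 0.22. In the same list CML38, a calmodulin-like protein of hypoxic granules, rose by 1.42 ± 0.37, from 51.4, 48.8 and 66.4 CPM to 143, 123 and 179 CPM, and ACO1, an ethylene-forming oxidase, by 1.20 ± 0.25. LBD41, a LOB-domain factor, and HB1, the hypoxia-induced haemoglobin, were not called, with fold changes of -0.32 ± 0.14 and -0.04 ± 0.18, although LBD41 was called as falling with RLE size factors, library totals alone and DESeq2 and without submergence 2 (-0.35 to -0.50).

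**Figure D2:**
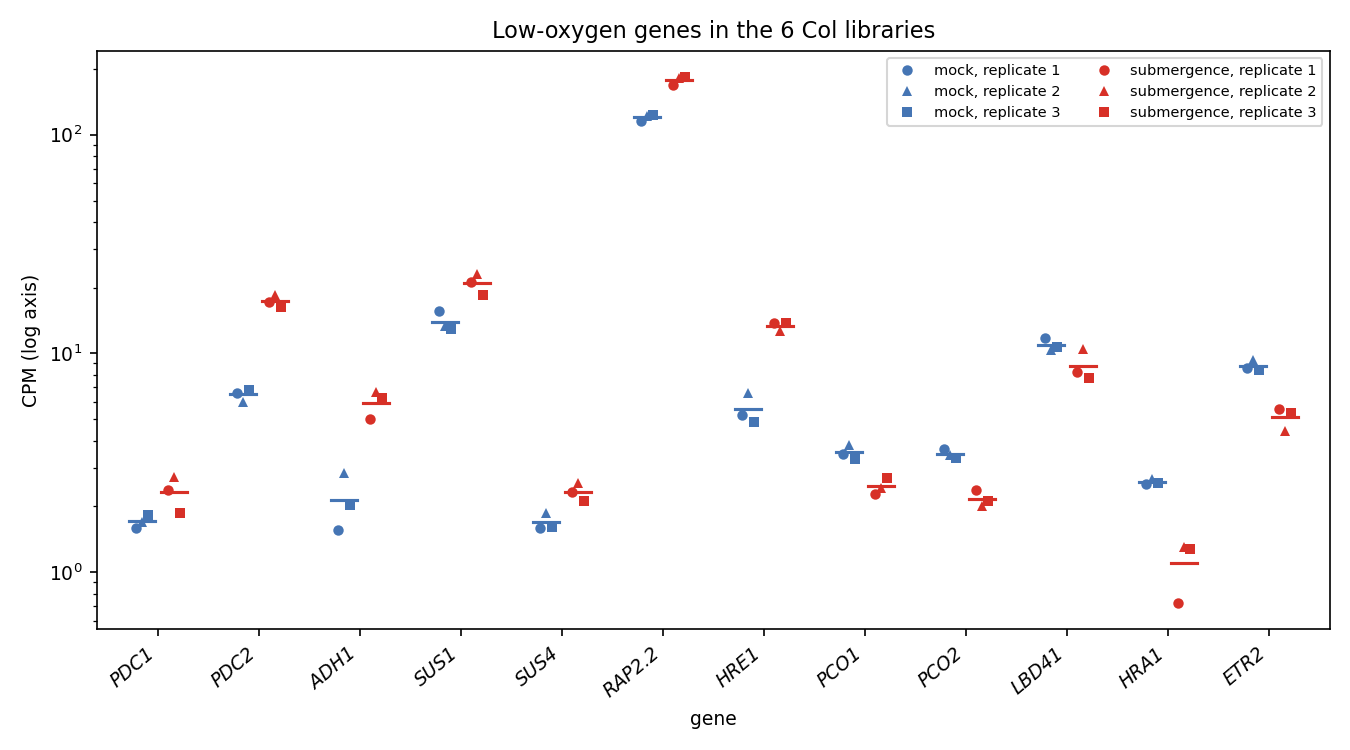
Level in CPM (log axis) of 12 low-oxygen genes in the 3 mock (blue) and 3 submergence (red) libraries, with markers for replicates 1 to 3 and a line at each mean. PDC2, ADH1, SUS1, RAP2.2 and HRE1 lie higher and PCO1, PCO2, HRA1 and ETR2 lower under water without overlap, and in LBD41 the groups overlap.

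Cytosolic glycolysis was mixed as well. Of 14 genes, 6 rose and 3 fell on the TMM scale, but 3 rose and 5 fell on library totals alone, and the median went from 0.15 to -0.03. Hexokinase 1 (HXK1) rose by 0.69 ± 0.08, phosphoglycerate kinase (PGK) by 0.61 ± 0.08 and triosephosphate isomerase (TPI) by 0.54 ± 0.07, the last from 310, 355 and 327 CPM to 483, 484 and 476 CPM. The enolase gene ENO2 changed by -0.38 ± 0.07 and PFK3, a phosphofructokinase, by -0.54 ± 0.17, which was not called without submergence 3 (edgeR adjusted p = 0.0635).

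Ethylene signalling genes were mostly not called, with 2 of 13 up and 3 down, and 1 up and 6 down on library totals alone. EIN2, the membrane protein that carries the signal to the nucleus, stood at 136, 147 and 148 CPM in mock and at 63, 67.5 and 49.7 CPM under water, a change of -1.26 ± 0.09. EBF1, an F-box protein that removes the factor EIN3, went from 214, 198 and 220 CPM to 91.6, 98.5 and 100 CPM (-1.12 ± 0.09). Neither gene showed any overlap of libraries. EIN3 itself was not called (0.10 ± 0.07), and the receptor gene ERS1 rose by 0.40 ± 0.07. In ethylene synthesis 4 of 8 genes rose and 1 fell, or 2 on library totals alone, in the 6 Col libraries alone and without mock 1. The ACC synthase genes went opposite ways, ACS8 up by 3.22 ± 0.26 from a mean of 2.65 to 24.8 CPM, and ACS11 down with a fold change of -2.27 ± 0.14 from 47.7 to 9.90 CPM.

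Jasmonate genes rose together along the pathway. Of 10 synthesis genes, 9 rose and 0 fell, with a median log2 fold change of 2.43. Jasmonate is made in the chloroplast from linolenic acid by lipoxygenases, allene oxide synthase (AOS) and allene oxide cyclases (AOC), and then in the peroxisome by OPR3. LOX2, the main leaf lipoxygenase of the pathway, stood at 1.56, 1.86 and 0.992 CPM in mock and at 27.3, 27.3 and 22.7 CPM in submergence, a rise of 4.13 ± 0.30 (edgeR adjusted p = 4e-09). OPR3 went from 25.3, 27.9 and 26.1 CPM to 237, 195 and 200 CPM, a rise of 3.00 ± 0.19. AOS went from 52.7, 44.8 and 48.7 CPM to 212, 169 and 197 CPM (1.98 ± 0.14). In each of these every submergence library lay far above every mock library.

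The cyclases AOC1, AOC2 and AOC3, neighbouring paralogs that may share reads, rose by 3.15 ± 0.13, 3.75 ± 0.15 and 2.74 ± 0.16, and AOC4 by 0.50 ± 0.12. LOX3 rose by 2.12 ± 0.24 and JAR1, which joins jasmonate to isoleucine to form the active hormone, by 1.19 ± 0.08. LOX4 was the member that did not pass the test, at 32.3, 23 and 39 CPM in mock and 33.9, 30.7 and 39.1 CPM in submergence, and its small fold change of 0.13 ± 0.26 turned to -0.05 on library totals alone and without mock 2.

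JAZ proteins repress jasmonate-responsive transcription and are themselves induced by the hormone. Of 12 tested, 10 rose and 0 fell, with a median of 1.54, and 1 (JAZ11, -0.30 ± 0.13) was called as falling with RLE size factors, with library totals alone, with DESeq2 and without mock 3 or submergence 3. JAZ9 stood at 52.7, 52.6 and 45.2 CPM in mock and at 427, 421 and 453 CPM under water, a rise of 3.11 ± 0.08 (edgeR adjusted p = 2.3e-21). JAZ10 went from 5.78, 3.28 and 4.8 CPM to 45.3, 38.9 and 46.8 CPM (3.22 ± 0.15), and overlaps AT5G02045 on the opposite strand. For both, the groups were far apart. JAZ5 rose by 2.45 ± 0.19, JAZ7 by 1.99 ± 0.13, JAZ6 by 1.76 ± 0.11 and JAZ1 by 1.19 ± 0.15, and JAZ4 was not called (0.39 ± 0.31).

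All 8 tested genes of jasmonate inactivation rose, with a median of 2.79. CYP94B1 and CYP94B3, which hydroxylate jasmonoyl-isoleucine, rose by 2.68 ± 0.11 and 1.32 ± 0.14, and CYP94C1 by the 5.61 given above. ILL6, an amidohydrolase that cleaves the conjugate, went from 29.5, 28.8 and 26.5 CPM to 163, 155 and 164 CPM (2.51 ± 0.10). The oxygenase gene AT5G05600 went from 21, 13.9 and 16.8 CPM to 466, 410 and 573 CPM (4.80 ± 0.20), and the jasmonate-regulated gene JRG21 rose by 2.91 ± 0.30. ST2A, a sulfotransferase of hydroxyjasmonate, rose by 1.65 ± 0.14. In each of the 8 genes the 3 submergence libraries lay above the 3 mock libraries.

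Of 5 tested jasmonate factors and outputs, 3 rose and 0 fell, and 1 fell on library totals alone. The vegetative storage proteins VSP1 and VSP2, classical jasmonate markers, went from means of 0.89 and 1.51 CPM to 6.16 and 6.81 CPM (2.79 ± 0.28 and 2.16 ± 0.33), and TAT3 rose from near 0 as given above. ORA47, a factor upstream of the synthesis genes, had a fold change of 1.07 ± 0.53 that was not called (edgeR adjusted p = 0.112), although it was called when the 6 Col libraries were fitted alone (1.05 ± 0.21). MYC2, the master factor of the pathway, is listed at 0 in all Col libraries, so nothing can be said of its level.

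**Figure D3:**
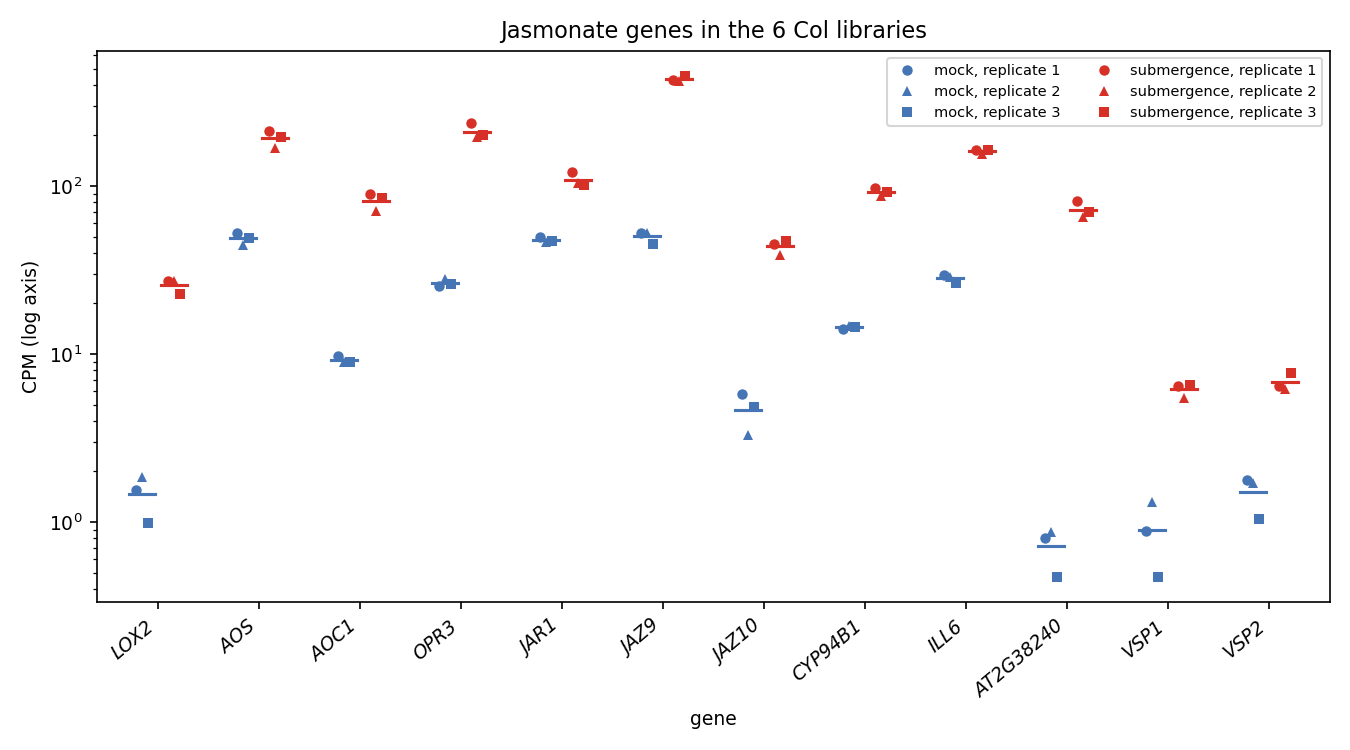
Level in CPM (log axis) of 12 jasmonate genes in the 3 mock (blue) and 3 submergence (red) libraries, with markers for replicates 1 to 3 and a line at each mean. For all 12 genes the submergence libraries lie above the mock libraries without overlap. The 12 were picked from the jasmonate lists, and LOX4, JAZ4, JAZ11 and ORA47, which were not called, are not shown. Over all genes tested, 57% had groups without overlap, in either direction.

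The cold-regulated COR genes rose, while CBF2 and CBF3, of the factors that drive them in the cold, fell. CBF genes are close paralogs that may share reads, and CBF1 was not called (-2.09 ± 0.90), except on library totals alone, with the replicate block and with the 6 Col libraries alone (edgeR adjusted p 0.000803 to 0.0418). The fall of CBF3 was lost without mock 3, submergence 1 or submergence 2 (edgeR adjusted p 0.0569 to 0.124). Of 13 members of this list, 8 rose and 3 fell, with a median of 2.57. RD29A, a hydrophilic stress protein, stood at 15, 10.6 and 10.6 CPM in mock and at 343, 368 and 309 CPM in submergence (4.81 ± 0.21). The dehydrins LTI30, COR47 and ERD10 rose by 3.86 ± 0.12, 2.57 ± 0.10 and 3.13 ± 0.20, and COR47 reached 1854, 1884 and 2089 CPM from 345, 312 and 322 CPM. KIN1 and COR6.6, close paralogs that may share reads, rose by 4.15 ± 0.19 and 3.05 ± 0.13. CBF2 went the other way, from 30.5, 26.3 and 33 CPM to 3.66, 5.49 and 5.84 CPM (-2.59 ± 0.43), and RD22, a dehydration-responsive gene, changed by -1.14 ± 0.10. The DREB factor gene DDF1 rose by 0.88 ± 0.24, and its paralog DDF2 was not called (-0.36 ± 0.27). With the 12 Col libraries of both sets in 1 fit, the rise of DDF1 was not called (0.84 ± 0.58, edgeR adjusted p = 0.283).

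Abscisic acid genes leaned downwards, with 2 of 18 up, 7 down and a median of -0.33. RD29B, a marker of abscisic acid response, fell from 13.5, 13.2 and 16.1 CPM to 4.1, 3.17 and 3.04 CPM (-2.04 ± 0.17). NCED3, the rate-limiting synthesis enzyme under drought, changed by -1.39 ± 0.24, and CYP707A1, which degrades the hormone, fell from a mean of 34.6 to 17.3 CPM. The NAC factor gene RD26 rose by 1.15 ± 0.10 and the phosphatase gene HAB1, which restrains the pathway, by 0.46 ± 0.08. RD29A and RD29B, often used side by side, thus moved in opposite directions.

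Of 14 heat shock genes 9 rose and 0 fell, with a median of 1.39. HSP101, a disaggregase, stood at 22.4, 15.7 and 15.2 CPM in mock and at 80.8, 96.4 and 74.6 CPM under water (2.23 ± 0.33). HSP70 rose by 1.94 ± 0.31, from a mean of 113 to 432 CPM, and the cytosolic chaperone gene HSP90.1 by 1.99 ± 0.32, from 43.4 to 173 CPM. The factor gene HSFA2 rose by 1.68 ± 0.47 and HSFA7A by 0.99 ± 0.15, whereas the small heat shock gene HSP17.6A was not called (0.29 ± 0.43).

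Of 12 chaperones and folding genes of the endoplasmic reticulum 1 rose and 8 fell, with a median of -0.33, and 2 rose without submergence 2. BIP3, the stress-induced form of the lumenal HSP70, fell from 9.3, 8.37 and 8.83 CPM to 1.29, 1.46 and 2.31 CPM (-2.40 ± 0.23). The disulfide isomerase gene PDIL1-2 changed by -0.81 ± 0.10 and the calnexin gene CNX1 by -0.71 ± 0.08. The calreticulin gene CRT3 was the member that rose (0.40 ± 0.08).

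Among 7 genes of mitochondrial stress 3 rose, or 1 on library totals alone. NDB2, an external NADH dehydrogenase, went from 14.2, 13.8 and 12.8 CPM to 42, 39.5 and 41.1 CPM (1.59 ± 0.12), and the alternative oxidase gene AOX1A rose by 0.33 ± 0.09, a call lost on library totals alone. Of 11 antioxidant enzymes and NADPH oxidases 2 rose and 7 fell, with a median of -0.28, and 1 rose on library totals alone, where 8 fell, without mock 2 or without submergence 2. The ascorbate peroxidase gene APX1 rose from 315, 305 and 317 CPM to 710, 684 and 713 CPM (1.17 ± 0.07), while CSD2, the chloroplast copper/zinc superoxide dismutase, went from 162, 214 and 197 CPM to 56, 60.5 and 65.6 CPM (-1.65 ± 0.16).

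Touch and wound-type factors rose in 8 of 16 cases and fell in 0, with a median of 0.83. ABR1, an ERF factor, stood at 4.09, 1.81 and 2.61 CPM in mock and at 102, 89.6 and 99.4 CPM in submergence (5.06 ± 0.34), and overlaps AT5G64760 on the opposite strand. ERF2 rose by 3.81 ± 0.28 and ERF1A by 2.07 ± 0.23, both activators of ethylene-responsive genes, and the zinc finger factor gene ZAT6 by 3.02 ± 0.24. TCH3, a calmodulin-like touch gene, rose by 1.17 ± 0.23, but TCH2 and TCH4 were not called (-0.10 ± 0.27 and 0.19 ± 0.28).

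Synthesis genes of glucosinolates, sulfur-rich defence compounds of the cabbage order, rose. On the aliphatic branch, which starts from methionine, 13 of 14 tested genes rose and 1 fell, with a median of 3.08. BCAT4 and MAM1, which begin the lengthening of the methionine side chain, went from 0.356, 0.492 and 0.418 CPM to 15.2, 9.47 and 10.4 CPM (4.79 ± 0.29) and from 3.29, 2.08 and 1.72 CPM to 24.6, 22.4 and 22.9 CPM (3.28 ± 0.20). CYP83A1, the next enzyme after CYP79F1, went from 0.311, 1.48 and 0.627 CPM to 13.3, 11.3 and 10.5 CPM (3.91 ± 0.45). In all of these the groups were far apart, from mock levels near or below 3 CPM. FMOGS-OX1, which oxidises the side chain, rose by 3.53 ± 0.40 and CYP79F2 by 2.88 ± 0.28. The factor MYB28, which activates this branch, was the member that fell, from 15.8, 8.81 and 9.51 CPM to 6.95, 7 and 6.03 CPM (-0.78 ± 0.20), whereas MYB29 went from 5 counts over the 3 mock libraries to 138 counts under water.

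On the indole branch, from tryptophan, 8 of 12 genes rose and 2 fell, with a median of 0.44. The glutathione transferase gene GSTF10 rose by 1.94 ± 0.11, from a mean of 114 to 437 CPM, and the sulfotransferase gene SOT16 by 1.26 ± 0.13. The 2 that fell were MYB51, the activator of the branch, from 46.9, 41 and 51.9 CPM to 15.4, 11.2 and 13.4 CPM (-1.80 ± 0.17), and CYP81F2, which modifies the indole ring (-1.12 ± 0.15). On each branch an activating MYB gene thus fell while most enzyme genes rose, and MYB122, another activator of the indole branch, rose by 1.27 ± 0.31.

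Among 13 flavonoid and anthocyanin genes 6 rose and 3 fell. The early enzymes chalcone synthase (CHS) and flavonol synthase (FLS1) changed by -0.75 ± 0.12 and -0.76 ± 0.18, CHS from 231, 275 and 217 CPM to 138, 155 and 137 CPM. The late enzymes DFR and LDOX, which lead to anthocyanins, rose by 1.26 ± 0.39 and 1.48 ± 0.43 at means that stayed under 3 CPM, and the rise of DFR was not called without mock 1 (edgeR adjusted p = 0.0593). CHS held most of the summed level of the list, which was 257 to 315 CPM in mock and 181 to 199 CPM in submergence.

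Nuclear photosynthesis genes rose by small amounts or were not called. Of 34 genes, 28 rose and 0 fell on the TMM scale, with a median of 0.35, and 21 rose and 3 fell on library totals alone, with a median of 0.17. RBCS2B and CA1 rose most, by 0.96 ± 0.08 and 0.86 ± 0.06. CA1 stood at 2440, 2710 and 2577 CPM in mock and 4440, 4498 and 5045 CPM in submergence. PSBQ1, of the oxygen-evolving complex, rose by 0.71 ± 0.07 and the light-harvesting gene LHCB6 by 0.55 ± 0.08. The summed level of the 34 genes was 120800 to 142300 CPM in mock and 162400 to 165900 CPM in submergence on the scale of the 12 Col libraries, without overlap. Chloroplast-encoded genes, which poly-A selection largely removes, gave 3 rises and 0 falls among 85, with 1 rise without mock 1, mock 2 or submergence 3, on library totals alone and with no filter on low counts, and 5 with DESeq2 and with the 6 Col libraries alone. Of 27 tested mitochondria-encoded genes 0 were called, though 3 rose with the 6 Col libraries alone and 1 without mock 3.

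Of 10 morning factors 7 rose and 0 fell, with a median of 0.39. RVE1, a MYB-like factor that links the clock to auxin, went from 32.3, 27.9 and 28.4 CPM to 98.9, 117 and 104 CPM (1.85 ± 0.10), and LHY rose by 0.50 ± 0.10, but CCA1, its partner, was not called (0.09 ± 0.09). Of 11 day and evening genes 4 rose and 3 fell, or 3 and 4 on library totals alone, among them PRR9 (0.97 ± 0.10), GI (0.86 ± 0.12) and TOC1 (0.80 ± 0.09) as rises and ELF3 (-0.51 ± 0.12) as a fall. Of the phytochrome-interacting factors, PIF4 fell from 105, 100 and 105 CPM to 51.1, 53.2 and 53.9 CPM (-0.98 ± 0.09) and PIF1 changed by -1.46 ± 0.15, whereas PIF3 rose by 0.69 ± 0.15. The sources used here do not give the hour of harvest, so its part in these values was not tested.

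Cell cycle and DNA replication genes rose in 15 of 28 cases and fell in 0 on the TMM scale, and rose in 13 and fell in 1 on library totals alone, with a main median of 0.65. The mitotic kinases CDKB1;1 and CDKB2;2 rose by 2.02 ± 0.27 and 1.68 ± 0.15, and KNOLLE, the syntaxin of the forming cell plate, went from 2.4, 1.92 and 2.56 CPM to 9.25, 9.78 and 8.39 CPM (1.99 ± 0.19). The B-type cyclin genes CYCB1;3 and CYCB1;2 rose by 1.46 ± 0.29 and 0.98 ± 0.20. CYCD3;1, a cyclin of the G1 phase, (-0.02 ± 0.12), and MCM2, of replication licensing (0.12 ± 0.16), were not called. Among 45 histone genes 25 rose and 6 fell.

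In the list of cell wall genes expansins and XTH genes differed. Of 20 expansins and xyloglucan-modifying XTH enzymes 10 rose and 8 fell. All 10 rises were XTH genes, and 6 of the 8 falls were expansins. Over all 22 tested genes annotated as expansins, however, 5 rose and 10 fell, with a median of -0.08, and 3 of the rises were at least 2-fold. EXPA1 stood at 131, 175 and 123 CPM in mock and at 18.5, 17.6 and 21.3 CPM under water (-2.90 ± 0.16), and EXPA4 changed by -1.36 ± 0.11. XTH18 went from 148, 115 and 132 CPM to 516, 481 and 551 CPM (1.97 ± 0.20), and XTH17, XTH19 and XTH16 rose by 2.17 ± 0.20, 2.24 ± 0.18 and 1.34 ± 0.10. In the SAUR family, whose products promote growth by cell expansion, 10 of 52 members rose and 18 fell, and 17 of the falls were at least 2-fold.

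In gibberellin metabolism 3 of 5 tested genes that remove the hormone rose, and the synthesis gene GA20OX2 fell. GA2OX6, a gibberellin 2-oxidase, went from 27.9, 21.4 and 23.6 CPM to 137, 121 and 146 CPM (2.47 ± 0.16), and GA2OX2 and GA2OX8 rose by 1.18 ± 0.18 and 3.26 ± 0.37. GA20OX2, of hormone synthesis, fell from 3.65, 3.5 and 3.71 CPM to 0.764, 0.806 and 0.589 CPM (-2.32 ± 0.42). Of the DELLA repressors, RGL3 rose by 2.45 ± 0.17 while GAI and RGL2 changed by -0.87 and -1.14, and RGA was not called (0.14 ± 0.07). Over the 16 tested members of the list 5 rose and 5 fell. Of 13 auxin response genes 3 rose, or 5 without submergence 2, and 4 fell, among them GH3.3, which conjugates auxin to amino acids, with a rise of 2.58 ± 0.21, and the repressor gene IAA14 with -0.95 ± 0.14.

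The 3 genes of nitrate reduction fell. NIA1 stood at 372, 417 and 371 CPM in mock and at 49.4, 68.6 and 48.8 CPM in submergence (-2.80 ± 0.15), and NIA2 changed by -1.53 ± 0.09. The nitrite reductase gene NIR1 went from 129, 146 and 138 CPM to 64.7, 56.9 and 57.9 CPM (-1.20 ± 0.11). No library of either group reached the other for these 3 genes. The nitrate transporters NRT1.8 and NRT1.1 rose by 1.61 ± 0.16 and 0.83 ± 0.13, so that 3 of the 7 tested genes of the list rose and 3 fell, or 2 and 4 on library totals alone.

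Iron deficiency genes rose in 8 of 17 cases and fell in 4, or 2 without mock 3, with a median of 0.27, and 7 rose and 6 fell on library totals alone. Besides IRT1, the ferric reductase gene FRO2 went from 0.534, 0.875 and 1.15 CPM to 3.1, 6.55 and 4.71 CPM (2.49 ± 0.39), and the factor genes BHLH101 and BHLH39 rose by 1.90 ± 0.27 and 1.14 ± 0.26. The ferritin genes, which store iron, went both ways, FER3 up by 1.34 ± 0.09 and FER1 with -0.69 ± 0.13. Among 9 wax genes 5 rose and 2 fell, or 4 and 3 on library totals alone, with KCS1, a fatty acid elongase, up by 1.21 ± 0.09 and CER3 at -0.36 ± 0.07. Aquaporins rose in 8 of 18 cases and fell in 3, or 7 and 5 on library totals alone, by at most 0.79 ± 0.20 (PIP2;5).

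Sugar-starvation markers were split. Of 19 genes 9 rose and 6 fell, with a median of 0.33, and 3 fell without submergence 3. BZIP53, a factor of the low-energy response, stood at 90.2, 77.6 and 108 CPM in mock and at 263, 281 and 288 CPM under water (1.59 ± 0.10). DIN9, a phosphomannose isomerase induced by darkness, rose by 1.81 ± 0.11, and the class II trehalose phosphate synthase genes TPS8 and TPS11 by 1.31 ± 0.18 and 1.07 ± 0.20. DIN6, the asparagine synthetase used as a dark and starvation marker, was high in all 6 libraries, at 2958, 3177 and 3482 CPM in mock and 3195, 3565 and 3268 CPM in submergence, and was not called (0.06 ± 0.14). DIN2, a beta-glucosidase gene of the same series, fell from 208, 153 and 237 CPM to 47.9, 39.8 and 39.7 CPM (-2.23 ± 0.17).

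Genes that break down branched-chain amino acids and lysine fell, with 1 of 10 up, 7 down and a median of -0.49. MCCB, a subunit of methylcrotonyl-CoA carboxylase, went from 247, 281 and 306 CPM to 103, 120 and 109 CPM (-1.33 ± 0.11). LKR, of lysine catabolism, and IVD, the isovaleryl-CoA dehydrogenase, changed by -1.08 ± 0.10 and -0.86 ± 0.10. Without submergence 1, 4 of the 7 falls were called. The proline dehydrogenase gene ERD5 was the member that rose, from 1210, 1193 and 1410 CPM to 2251, 2510 and 2241 CPM (0.88 ± 0.17). As the most abundant gene of the list it kept the summed level of the 10 genes in submergence, 3548 to 4052 CPM, within reach of that in mock, 3260 to 3810 CPM.

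Autophagy genes rose in 9 of 24 cases and fell in 1, or 2 without mock 2 and 3 without submergence 3, but rose in 6 and fell in 6 on library totals alone, where the median went from 0.21 to 0.03. The ubiquitin-like ATG8 genes held 7 of the 9 rises, led by ATG8E, which went from 102, 114 and 106 CPM to 249, 233 and 320 CPM (1.32 ± 0.21), and ATG8H (0.99 ± 0.15). Fat breakdown was split, with 3 of 11 up and 5 down, and 1 up and 8 down on library totals alone. The glyoxylate cycle genes ICL and MLS fell by 1.86 and 0.70 on the log2 scale, and the peroxisomal acyl-CoA oxidase gene ACX1 rose by 0.87 ± 0.07. Of 14 senescence and chlorophyll breakdown genes 2 rose and 4 fell, with a median of -0.09, but 2 fell without mock 2 or mock 3, and 4 rose with a filter at a mean of 1 CPM. The 2 that rose were NAP, a NAC factor of leaf senescence, from a mean of 3.89 to 10.4 CPM, and NYE1, which takes magnesium from chlorophyll, from 15.9 to 25.3 CPM.

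Of 15 genes of pattern-triggered immunity 6 rose and 4 fell. FLS2, the flagellin receptor, stood at 3.69, 4.76 and 4.44 CPM in mock and at 52.4, 51.5 and 50.8 CPM in submergence (3.59 ± 0.29), and EFR, the receptor of the bacterial factor EF-Tu, rose by 1.71 ± 0.19. Both overlap genes on the opposite strand. The factor gene WRKY22 went from 18.9, 15.1 and 24.1 CPM to 221, 212 and 202 CPM (3.45 ± 0.28), and the danger peptide receptor gene PEPR1 rose by 1.23 ± 0.08. WRKY33 changed by -1.04 ± 0.28 and FRK1, a flagellin-induced kinase gene, by -2.39 ± 0.56 at under 2 CPM.

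In the salicylic acid list 2 of 17 genes rose and 5 fell, or 3 without mock 3, with a median near 0 whose sign turned with RLE size factors, library totals alone and DESeq2. EDS5, the transporter that exports the precursor from the chloroplast, rose from 3.65, 6.07 and 4.39 CPM to 34.2, 31 and 27.6 CPM (2.73 ± 0.24), while the synthesis gene ICS1 was not called (-0.02 ± 0.11). The activator gene CBP60G fell from 53, 32.6 and 52.4 CPM to 18.8, 14.4 and 13.4 CPM (-1.56 ± 0.26), and FMO1, of systemic resistance, changed by -1.33 ± 0.20. Leucine-rich repeat kinases as a family fell in 57 of 131 cases and rose in 14.

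With BKK1 and BAK1 included, the list of SERK and brassinosteroid signalling genes held 3 rises and 6 falls among 14, with a median of -0.09, and 2 rises and 8 falls on library totals alone. The receptor gene BRI1 stood at 384, 352 and 396 CPM in mock and at 169, 194 and 172 CPM under water (-1.08 ± 0.07). BRI1 and the co-receptor gene BKK1 thus moved in opposite directions, while the rise of BAK1 was not called on library totals alone. The factor gene BES1 changed by -0.68 ± 0.08, and BZR1 was not called (0.10 ± 0.10). In synthesis and inactivation 4 of 13 genes rose and 5 fell, and 1 to 2 rose with RLE size factors, with library totals alone, with DESeq2, with no filter on low counts, with the 6 Col libraries alone, without any single mock library and without submergence 1 or submergence 2. On library totals alone 1 rose and 6 fell. CPD, a synthesis enzyme, fell from 279, 346 and 350 CPM to 171, 173 and 190 CPM (-0.87 ± 0.08), and BAS1, which inactivates the hormone, changed by -1.08. Of 9 tested class I TCP genes 1 rose and 3 fell, TCP8 at 0.33 ± 0.07, a call lost on library totals alone, where 4 fell, and TCP7 at -0.70 ± 0.11. TCP9 is listed at 0 in all Col libraries.

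Families set by their annotated product gave a similar spread. Apart from the ribosomal protein genes, they were counted on the TMM scale only. The same holds for the histones, SAUR genes, leucine-rich repeat kinases and all genes annotated as expansins above. Whether the counts of these families depend on the scaling was not tested. Lipid transfer proteins rose in 32 of 56 cases and fell in 6, arabinogalactan proteins in 19 of 39 against 4, class III peroxidases in 25 of 54 against 7, and ERF and DREB factors in 32 of 73 against 12. Cytochrome P450 genes fell in 59 of 148 cases and rose in 30. Calmodulin-like and EF-hand genes rose in 26 of 56 cases and fell in 12. Of 257 nuclear ribosomal protein genes 72 rose and 47 fell, but 35 rose and 88 fell on library totals alone, so their direction depends on the scaling. Without mock 1 or submergence 3, 44 and 46 of them rose, and without mock 2, 29 fell.

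The labelled tissue was checked against markers of organs. The 11 root markers summed to 160 to 181 CPM in mock and 171 to 176 CPM in submergence, with 4 up and 2 down, or 3 and 3 on library totals alone, and the 8 stomatal lineage markers to 37.5 to 44.8 CPM against 36.1 to 40 CPM, with 2 up and 1 down, and 0 to 1 up without mock 1, mock 3, submergence 2 or submergence 3, on library totals alone and with the 6 Col libraries alone. The last 2 settings gave 3 and 2 down. Root and shoot markers were thus present in both groups. Of 14 seed storage and oil body genes 5 were tested, 3 fell and 0 rose, or 1 rose with no filter on low counts, and their summed level of 5.38 to 6.45 CPM in mock and 3.46 to 4.02 CPM in submergence was low in every library of the tcp set. The part of cell-type shares in the changes above was not tested.

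The Col response of the tcp set was then compared with that of the bak set, which has its own Col libraries. There, 5245 of 20666 genes rose (25.4%) and 4973 fell (24.1%), 49.4% in all. Among 20069 genes tested in both sets, 3348 had the same call, which is 33.1% of the calls of the tcp set and 33.3% of those of the bak set. Opposite calls were made for 2286 genes, of which 1315 rose in the tcp set and fell in the bak set and 971 did the reverse. Opposite changes of at least 2-fold in both sets were seen for 306 genes. An interaction test over the 12 Col libraries found a different response in 9752 of 20475 genes (47.6%), higher in the tcp set for 4951 (24.2%) and lower for 4801 (23.4%). The mock groups of the sets already differed in 9997 genes and the submergence groups in 11142. The set cannot be told apart from whatever else differed between the experiments.

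Seed storage and oil body markers moved within the bak set. On the joint scale the summed level of 13 such genes was 289 CPM in mock 2 and 267.8, 149 and 215.5 CPM in the 3 submergence libraries of the bak set, against 3.53 and 4.37 CPM in its mock 1 and mock 3 and at most 6.92 CPM in the tcp set. Their part in the differences between the sets was not tested. Without mock 2 of the bak set, 9113 genes differed in response, 4648 higher and 4465 lower in the tcp set.

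**Figure D4:**
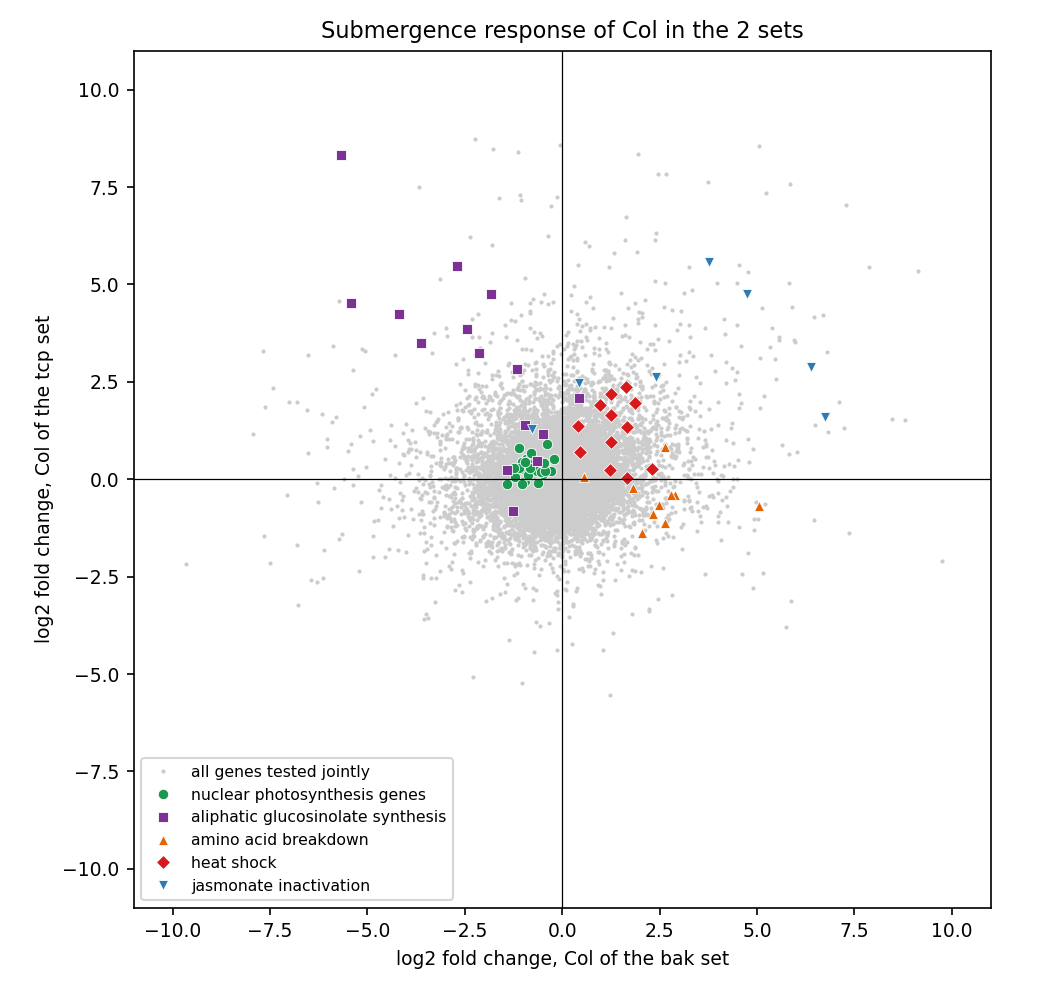
Log2 fold change of submergence against mock Col in the tcp set (vertical) against the bak set (horizontal), from 1 fit of the 12 Col libraries, with 5 gene lists coloured over all genes tested jointly (grey). Aliphatic glucosinolate genes lie mostly up in the tcp set and down in the bak set, amino acid breakdown genes near or below 0 in the tcp set and above 0 in the bak set, and heat shock genes above 0 in both.

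Photosynthesis, cell cycle and aliphatic glucosinolate genes rose in the tcp set and fell in the bak set in most called cases. All 34 photosynthesis genes but 1 had a higher response in the tcp set by the interaction test (33 higher, 0 lower), with 28 up in the tcp set and 32 down in the bak set (median 0.35 against -0.74). All 28 cell cycle genes responded higher in the tcp set (15 up against 23 down), or 25 to 28 when single libraries were left out. On the aliphatic glucosinolate list 14 genes responded higher and 0 lower, with medians of 3.08 and -1.80. The summed level of that list on the joint scale was 70.3 to 89.8 CPM in mock and 180 to 221 CPM in submergence of the tcp set, and 572 to 693 CPM and 204 to 268 CPM in the bak set. The submergence groups thus lay close together, and the mock groups far apart.

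Amino acid breakdown, fat breakdown, autophagy and ethylene signalling genes responded lower in the tcp set. All 10 amino acid breakdown genes rose in the bak set, with a median of 2.58 against -0.49, and all 10 responded lower in the tcp set. Their summed level in mock on the joint scale was 3520 to 4126 CPM in the tcp set and 758 to 945 CPM in the bak set. Fat breakdown (0 higher, 11 lower), autophagy (0 higher, 18 lower of 24) and ethylene signalling (0 higher, 12 lower of 13) followed, with bak medians of 1.02, 0.80 and 1.43. Of the 24 autophagy genes 9 rose in the tcp set and 23 in the bak set. On library totals alone 6 rose and 6 fell in the tcp set, so a rise of this list there depends on the scaling. Of 8 ethylene synthesis genes 2 responded higher and 2 lower. DIN6 was among the genes that differed, with a log2 fold change of 4.01 in the bak set against 0.06 in the tcp set (interaction -3.96, edgeR adjusted p = 8.1e-07).

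Jasmonate synthesis genes rose in 4 and fell in 3 of 10 cases in the bak set, against 9 and 0 in the tcp set, and 9 of them responded higher in the tcp set. Jasmonate inactivation genes rose in both, 6 of 8 in the bak set with a median of 4.28 against 2.79, and 2 responded higher and 3 lower in the tcp set. AT5G05600 had almost the same fold change in both sets, 4.80 and 4.77, an interaction of 0.01 (adjusted p = 0.983) that was -0.17 on library totals alone. Heat shock genes rose in both sets, 9 of 14 against 5 of 12, with medians of 1.39 and 1.29. The cold-type factors and COR genes differed as a list. In the bak set 6 of 14 rose and 7 fell, with a median of -0.97 against 2.57 in the tcp set. By the interaction test 10 of the 14 responded higher and 1 lower in the tcp set. Within this list LTI30, COR47, KIN1 and COR6.6 rose in both sets, while ERD10 was not called in the bak set (-0.21). The response of ERD10 was higher in the tcp set by 3.32 (edgeR adjusted p = 7.4e-06). Low-oxygen genes are read against the shares over all genes tested jointly, 24.2% higher and 23.4% lower. Of 8 fermentation and sucrose cleavage genes 3 responded higher and 2 lower in the tcp set, with medians of 0.45 against 0.74 in the bak set. Of 9 oxygen sensing genes 1 responded higher and 5 lower (0.03 against 0.47), and of 18 other core hypoxia genes 5 higher and 5 lower, close to those shares. SUS4 and PDC1 fell in the bak set (-3.23 and -1.57) and responded higher in the tcp set by 3.68 and 1.99, while the rise of PDC2 was 1.41 against 1.04, a difference of 0.36 (edgeR adjusted p = 0.0364) that was lost on library totals alone (0.18, edgeR adjusted p = 0.29), with the replicate block (edgeR adjusted p = 0.0571), with no filter on low counts, with all 30 libraries and without any 1 of 8 of the 12 libraries (edgeR adjusted p 0.051 to 0.0996), namely mock 1 and 2 and submergence 1 and 2 of the tcp set and mock 2 and 3 and submergence 1 and 3 of the bak set.

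**Figure D5:**
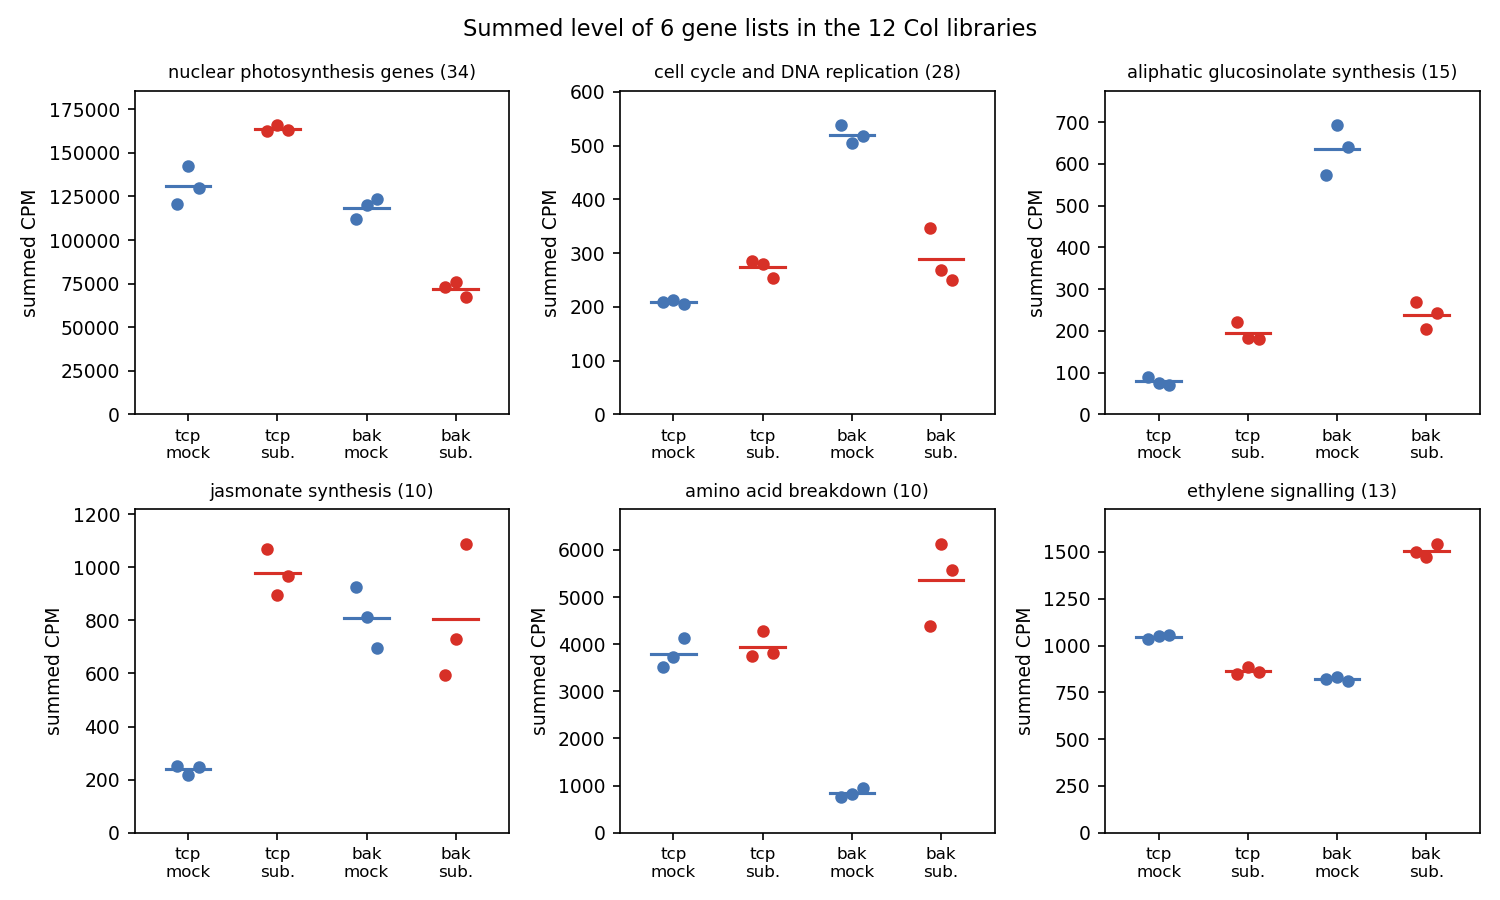
Summed CPM of 6 gene lists (number of genes in brackets) in the 12 Col libraries on 1 joint scale, as points with a line at the mean, mock in blue and submergence in red. Photosynthesis genes rise with submergence in the tcp set and fall in the bak set, and the mock groups of the aliphatic glucosinolate, cell cycle, jasmonate synthesis and amino acid breakdown lists lie far apart between the sets.

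The genes named next were chosen for the size of their difference of response, so their values are a description. ORA47, the DREB gene DDF1 and the ERF factor gene ERF13 responded higher in the tcp set by 7.06, 6.88 and 6.95 on the log2 scale. On the joint scale ORA47 stood at 2.07, 2.50 and 3.05 CPM in mock and 5.17, 5.37 and 5 CPM in submergence of the tcp set, and at 80.4, 92.1 and 42.5 CPM in mock and 1.6, 0.741 and 0.844 CPM in submergence of the bak set. In the other direction, FRK1 and AT5G25260, of a membrane protein family, had differences of response of -7.56 and -8.75. FRK1 stood at 53.9, 29.9 and 62.1 CPM in the submerged seedlings of the bak set and at 0.466, 0.266 and 0.155 CPM in those of the tcp set.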

How the data were processed

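Poly-A RNA of whole seedlings was sequenced on an Illumina instrument, with cDNA made from random hexamers, per the labels' protocols. The authors deposited raw read counts per gene, in whole numbers and not normalized, and the counts were used as deposited. Per the submitters' processing notes, fastp 0.23.1, STAR 2.7.9a and the TAIR10 genome were used. The sources used here name no counting program or strand setting, so genes that overlap on opposite strands, 5199 of those tested (25.5%), may share reads.

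Libraries were assigned to groups by their titles and strains. Genes were filtered with filterByExpr and tested in edgeR 4.0.16 (R 4.3.3) by the quasi-likelihood test with TMM scaling, in 1 robust fit of all 18 libraries of the tcp set, with Benjamini-Hochberg adjustment over all genes tested and a threshold of 0.05. Values after ± are standard errors of log2 fold changes, computed from the F statistic, unless marked SD. CPM are TMM-scaled within a table, and a joint scale was used for the 12 Col libraries of both sets, whose responses were compared by an interaction term. Interaction p-values are adjusted in the same way. The fit was tested on simulated counts: of 100 genes changed 2-fold 83 were recovered and of 100 changed 1.5-fold 59, with 12 false calls (7.79%). For the comparison of the sets, 58 of 100 and 10 of 100 were recovered, with 7 false calls (9.33%). Only these genes were changed in the simulations, equally often up and down, and all others kept 1 level across groups. In the data 50% of the genes were called for the response and 47.6% for the difference between the sets. The simulated rates therefore need not hold for the data, nor do they test the scaling.

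Depth was 17466180 to 26085652 counts per Col library of the tcp set and 21001355 to 27417759 of the bak set. Equal replicate numbers did not pair samples (residual correlations -0.0174, -0.0153 and 0.00695). Gene symbols were taken from RefSeq's TAIR10.1 annotation, which held 32548 of the IDs and lacked 285, and no coordinates or sequences were taken from it. The planned search of promoters for motifs was not run.

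Genes named in the text are BAK1, BKK1 and TCP21, the 6 largest rises and falls in fold change and in CPM, the 6 largest differences between the sets in each direction, and members of the lists. List members beyond those with the smallest adjusted p were chosen after their values were seen. The gene lists and their members were chosen with earlier results of these data known. Alternatives were RLE size factors, library totals alone, DESeq2 1.42.0, other filters, no organelle genes, the 6 Col libraries alone, a replicate block and leaving out each library.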

Additional observations from a re-analysis of the deposited data

Results flagged for a closer look

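The edgeR interaction test called a different Col response to submergence in the 2 sets for all 3 genes after which the mutants are named. Over all genes tested jointly, 47.6% were called. Values are also listed for the 12 genes with the largest differences. These were picked among called genes by size, so their calls were fixed by the choice and are a description. Values are differences of the log2 fold changes, tcp set minus bak set. For BKK1 the difference was 0.85, for BAK1 -0.54 and for TCP21 1.94. Higher responses in the tcp set were seen for FMOGS-OX1 (7.13), ORA47 (7.06), ERF13 (6.95), DDF1 (6.88), BCAT4 (6.58) and CYP83A1 (6.33). Lower responses were seen for AT5G25260 (-8.75), FRK1 (-7.56), BIP3 (-7.05), AT5G48430 (-5.95), AT3G63380 (-5.83) and AT4G25580 (-5.77). The set cannot be told apart from other differences between the experiments.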

How the results depend on the processing

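Of the counts over all genes, 143 recomputed under an alternative stayed within 1.5 times the main count and 1 did not. That was the number of genes that fell at least 2-fold, 902 with TMM and 1409 on library totals alone. On library totals alone 3759 genes rose and 6993 fell, and in the comparison of the sets 3935 responded higher and 6461 lower in the tcp set, against 4951 and 4801. RLE size factors gave 5246 rises and 4987 falls, DESeq2 5307 and 5023, and the 6 Col libraries alone 5135 and 4801. Leaving out a library gave 8868 to 9768 called genes, 4769 to 5333 rises, 4097 to 4435 falls, 1715 to 1941 rises and 864 to 910 falls of at least 2-fold, 2591 to 2841 of either, and 8761 to 9747 differences between the sets (4509 to 5027 higher, 4252 to 4720 lower). A replicate block gave 10108 called genes and 9357 differences between the sets, and the block is no evidence of pairing here. Genes near 0 that were not called changed sign. On library totals alone the log2 fold change was -0.057 for MCM2, -0.034 for RAP2.12, -0.046 for LOX4, -0.076 for BZR1, -0.039 for RGA, -0.093 for CCA1, -0.078 for RAP2.3, -0.084 for EIN3 and -0.12 for DIN6, and the difference between the sets was -0.17 for AT5G05600. Leaving out a library gave -0.015 to 0.21 for MCM2, -0.046 to 0.32 for LOX4, -0.081 to 0.015 for ICS1, -0.23 to 0.072 for HB1, -0.075 to 0.060 for CYCD3;1, -0.26 to 0.0080 for TCH2, and a difference of -0.15 to 0.24 for AT5G05600. Of the recomputed values of single genes named, 45 lost a call, 14 gained one and 27 changed sign. The cause of these changes was not tested. Depth limits genes of a few counts. The 6 genes set apart as close to 0 in mock are given by level only, whereas BGLU24, with 11 counts in mock, has a fold change.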
